A study of Mus musculus with 12 samples.

Results

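A set of 9706 CTCF sites in mouse liver was examined, each with a called peak in all 3 libraries from fed mice and in only 1 or 2 of the 3 libraries from starved mice. They were found by merging the peaks of all 6 lists into 76061 sites, where peaks sharing at least 1 bp formed 1 site. Of these, 44909 were fed sites, that is, held by all 3 fed libraries, and the 9706 members made up 21.6% of them. Another 13072 fed sites had a peak in none of the starved libraries and 22131 had one in all 3. The members were thus chosen by the presence of peaks in these same libraries. Their peak counts, scores and widths are therefore given as descriptions, while position in the genome and promoter sequence took no part in the choice.

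Chromatin immunoprecipitation and sequencing (ChIP-seq) of CTCF profiled whole, snap-frozen livers of wild-type male C57BL6/Ncrl mice aged 3 to 4 months, kept on normal chow with 12 h of light and 12 h of dark. The fed group had free access to food and its livers were taken at ZT16 (zeitgeber time, hours after lights on). The other group was starved for 24 h and its livers were taken at ZT13, so that feeding and collection time cannot be told apart. Each group had 3 ChIP libraries, called fed 1 to fed 3 and starved 1 to starved 3 here, and the inputs were not analysed here. Whether each library came from its own mouse is not stated in the labels. A whole liver mixes hepatocytes with other cells, so that fewer cells with a bound site and less binding per cell cannot be told apart. List lengths were 56103, 49030 and 74950 peaks for fed 1 to fed 3 and 30752, 23926 and 29866 for starved 1 to starved 3. The read depth behind the lists is unknown.

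CTCF is a zinc finger protein that binds a long, conserved DNA motif at insulators, at the anchors of chromatin loops and at many gene promoters. It halts the cohesin complex as this extrudes loops, and so helps to set which enhancers and promoters meet. The strength of a site varies widely, and many of the strongest sites are bound in nearly every tissue.

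Promoter sequences were taken from the RefSeq table of 32851 promoter windows, each running from 250 bases before to 50 bases after a gene start (GRCm38.p6, which is mm10). Each window was searched on both strands for the CTCF core consensus over 14 positions with at most 1 mismatch. The 4 stretches that follow come from the best-ranked members with such a match inside the site, leaving out stretches that run past the gene start, and they show what a match looked like. Capitals mark the matched core, and each stretch is written 5′ to 3′ on the strand of its gene. Ptpn7, which encodes a tyrosine phosphatase of blood cells, gave the stretch at chr1:135132556-135132655 (plus strand). Ncoa1, which encodes a nuclear receptor coactivator, gave chr12:4477359-4477432 (minus strand). Dcaf12l1 gave chrX:44790300-44790399 (minus strand), and the predicted gene Gm31881 gave chr3:152105494-152105586 (plus strand).
Ptpn7: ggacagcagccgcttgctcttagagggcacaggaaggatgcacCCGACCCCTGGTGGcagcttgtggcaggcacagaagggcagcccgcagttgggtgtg
Ncoa1: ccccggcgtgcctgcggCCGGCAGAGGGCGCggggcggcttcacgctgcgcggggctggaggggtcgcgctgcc
Dcaf12l1: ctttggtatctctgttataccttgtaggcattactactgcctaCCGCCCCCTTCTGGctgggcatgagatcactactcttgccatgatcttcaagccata
Gm31881: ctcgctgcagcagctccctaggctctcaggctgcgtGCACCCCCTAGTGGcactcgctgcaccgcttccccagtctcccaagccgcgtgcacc
The core lay 46 bp from the middle of the site at Ptpn7, 216 bp at Ncoa1, 38 bp at Dcaf12l1 and 3 bp at Gm31881. It ran in the direction of the gene at Ncoa1 and in the opposite direction at the other three.

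Most promoter windows overlapped by members held no such match, and 5 of them are shown because they belong to genes of feeding, fasting and the daily clock. Capitals mark short words instead: the GC box GGGCGG, the NRF1 word GCGCATG and the cAMP response element TGACGTCA, each in either direction. The 250 bases before the gene start are printed. Fasn, which encodes fatty acid synthase, has them at chr11:120824548-120824797 (minus strand). Clock, which encodes a core activator of the circadian oscillator, has them at chr5:76304793-76305042 (minus strand), and Nr1d2, which encodes the clock repressor REV-ERB beta, at chr14:18239107-18239356 (minus strand). Ehhadh, which encodes an enzyme of peroxisomal fatty acid oxidation, has them at chr16:21787835-21788084 (minus strand). Pnpla3, which encodes a lipid droplet protein, has them at chr15:84167566-84167815 (plus strand).
Fasn: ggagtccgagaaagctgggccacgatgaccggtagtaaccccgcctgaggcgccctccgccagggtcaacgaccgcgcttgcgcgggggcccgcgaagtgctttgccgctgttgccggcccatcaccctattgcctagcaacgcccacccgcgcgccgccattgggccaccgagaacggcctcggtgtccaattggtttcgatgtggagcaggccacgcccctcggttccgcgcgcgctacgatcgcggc
Clock: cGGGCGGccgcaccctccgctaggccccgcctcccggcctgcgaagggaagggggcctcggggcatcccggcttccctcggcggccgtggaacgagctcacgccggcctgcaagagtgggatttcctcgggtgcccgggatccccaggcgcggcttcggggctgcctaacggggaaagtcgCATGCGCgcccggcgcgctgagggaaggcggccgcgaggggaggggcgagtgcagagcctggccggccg
Nr1d2: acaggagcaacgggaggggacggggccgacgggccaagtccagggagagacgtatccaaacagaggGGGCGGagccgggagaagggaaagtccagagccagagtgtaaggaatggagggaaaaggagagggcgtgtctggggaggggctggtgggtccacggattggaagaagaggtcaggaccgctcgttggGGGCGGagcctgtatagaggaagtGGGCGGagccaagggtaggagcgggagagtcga
Ehhadh: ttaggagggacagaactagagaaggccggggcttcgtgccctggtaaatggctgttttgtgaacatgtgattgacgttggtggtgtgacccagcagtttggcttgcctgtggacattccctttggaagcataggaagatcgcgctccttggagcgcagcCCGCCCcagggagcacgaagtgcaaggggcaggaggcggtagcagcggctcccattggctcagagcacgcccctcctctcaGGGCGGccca
Pnpla3: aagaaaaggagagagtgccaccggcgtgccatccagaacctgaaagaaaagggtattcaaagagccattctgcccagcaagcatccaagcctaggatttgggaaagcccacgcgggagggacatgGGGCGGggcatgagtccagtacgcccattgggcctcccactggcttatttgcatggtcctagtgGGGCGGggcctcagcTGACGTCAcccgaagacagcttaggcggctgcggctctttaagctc
The member covered all 250 printed bases at Clock, 96 at Pnpla3, 71 at Fasn and 25 at Ehhadh. At Nr1d2 it covered none of them, since it overlapped only the end of the window after the gene start. The capitals therefore mark words of the promoter, not of the site. None of these 5 windows matched the CTCF core, even with 2 mismatches allowed. That says only that these letters are not in these windows. The Fasn window held none of the 7 short words searched.

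At Fasn the site (chr11:120823614-120824618) scored 59.6, 58.4 and 109 in fed 1 to fed 3 and 21.2 in starved 1, with no peak in starved 2 or starved 3. At Nr1d2 the site (chr14:18238643-18239094) scored 47.2, 28.8 and 68.0 in the fed libraries and 13.3 in starved 1, with no peak in the other 2. At Clock the site (chr5:76303970-76305466) scored 19.8, 19.3 and 18.3 in the fed libraries and 7.35 in starved 3 alone. All 3 sites were thus held by a single starved library, which was starved 1 for Fasn and Nr1d2 and starved 3 for Clock, with a score below each fed score. At Ehhadh the site (chr16:21788060-21789189) scored 80.1, 40.6 and 115 in the fed libraries and 7.93 in starved 1 alone. At Pnpla3 the site (chr15:84167720-84168258) scored 59.0, 68.3 and 97.1 in the fed libraries, 13.2 in starved 1 and 5.65 in starved 2, with no peak in starved 3. Scores are the authors' own values per peak, and whether they are on 1 scale across libraries is not known, so scores set side by side describe the lists. Ranks within a list are given too, and they depend on the length of the list. A fed rank is the mean percentile of a site's score over the 3 fed lists, where 100 is the best peak of a list.

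Which starved library held a member was far from even. Of the members, 4916 had a peak in 1 starved library and 4790 in 2, which is 49.4% of them (exact 95% interval 48.4 to 50.4, which like all intervals here covers counting error only). Starved 1 held 7005 members (72.2%), starved 3 held 6438 (66.3%) and starved 2, the library with the shortest list, held 1053 (10.8%). The most frequent pattern was a peak in starved 1 and starved 3 with none in starved 2, found at 3994 members. This made up 83.4% of the members held by 2 starved libraries (interval 82.3 to 84.4). Starved 1 alone held 2736 members, starved 3 alone 1923 and starved 2 alone 257, while starved 2 shared 275 with starved 1 and 521 with starved 3. Without starved 2 the same rule gave 5455 members and without starved 1 it gave 6449. The part of list length in this unevenness was not tested.

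**Figure D1:**
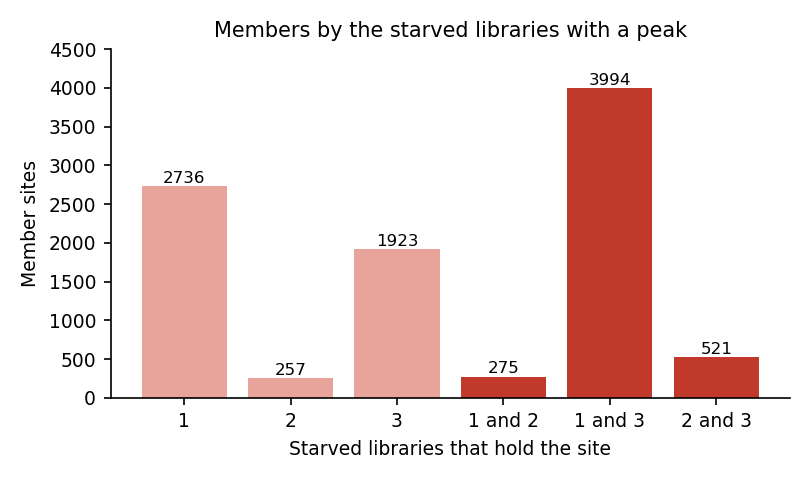
Number of member sites (vertical axis) by the starved libraries that held a peak (horizontal axis), with light bars for 1 library and dark bars for 2. The 3994 sites of starved 1 and 3 stand above the 2736 of starved 1 alone and the 1923 of starved 3 alone, and the 3 bars that include starved 2 reach 521 at most.

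Members lay in the middle of the fed ranking. Their median fed rank was 51.9, against 33.4 for the fed sites with no starved peak and 81.1 for those in all 3 starved libraries. Within the set, members with 1 starved library had a median fed rank of 46.3 and those with 2 a median of 56.7, so the 4 classes stood in the order of the number of starved libraries. In the band of fed rank from 50 to 60, members made up 64.0% of the fed sites. They made up 8.36% of the fed sites between 10 and 20, 2.60% between 70 and 80, and none of the 5552 above 90. The rule used peaks of the same lists, so this order is a description of the lists and not evidence about starvation.

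**Figure D2:**
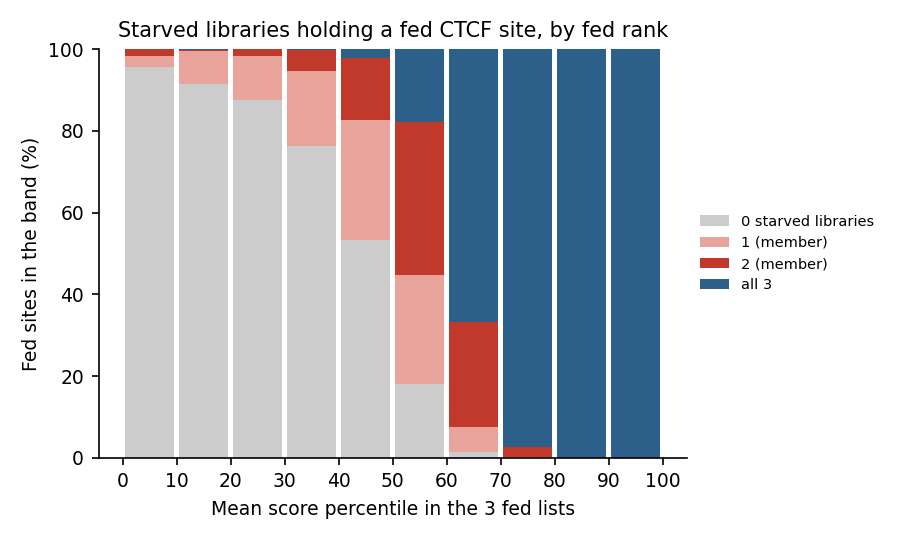
Share of fed sites (vertical axis, %) with a peak in 0, 1, 2 or all 3 starved libraries, in bands of 10 percentiles of fed rank (horizontal axis). The member classes are widest in the band from 50 to 60, where they make up 64.0% together, and narrow to 2.60% in the band from 70 to 80.

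The scores of members were middling in the fed lists and low in the starved ones. The median member score was 34.4 in fed 1, 27.4 in fed 2 and 57.0 in fed 3, where the medians of the whole lists were 33.6, 39.4 and 25.9. In the starved libraries that held them the medians were 9.04 in starved 1, 7.75 in starved 2 and 9.07 in starved 3, where the lists had medians of 30.3, 25.8 and 31.6. Those scores stood at the 17.3, 9.72 and 15.3 percentiles of the starved lists. A member that was kept was thus usually among the weaker peaks of the starved list that kept it. Fed sites just outside the rule lay on either side of these values. Median scores in fed 1 to fed 3 were 14.2, 11.2 and 24.7 for the sites with no starved peak and 130, 124 and 192 for those with all 3.

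**Figure D3:**
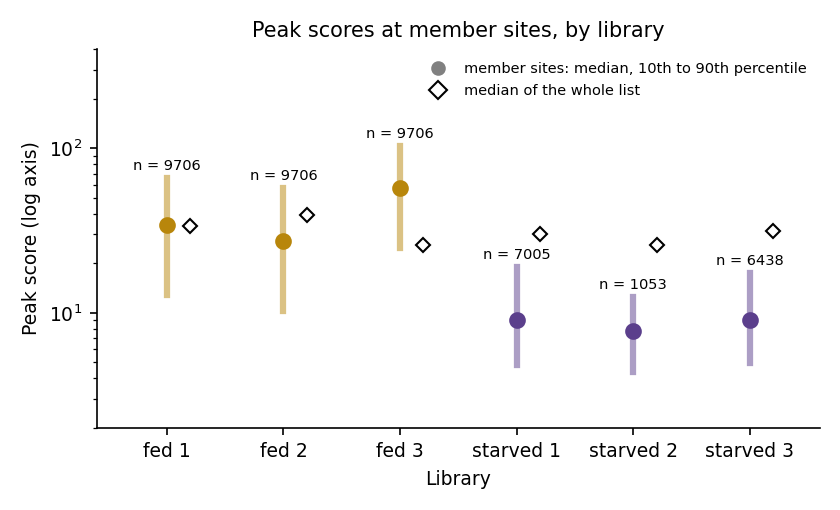
Peak scores at member sites (log axis) in each of the 6 libraries, with the median as a point, the 10th to 90th percentile as a bar and n as the members held, and the median of each whole list as an open diamond. In the 3 starved libraries the member medians lie between 7.75 and 9.07, below the list medians of 25.8 to 31.6.

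Percentiles of members differed between the fed lists, which differ in length. The percentile of a member was highest in fed 3 at 97.3% of members, and lowest in fed 2 at 78.1%. Fed 3 had the longest list and fed 2 the shortest of the fed lists, and a percentile within a list depends on its length. The median member score was also highest in fed 3, at 57.0, and lowest in fed 2, at 27.4. The part of list length in this order was not tested. The SD of a member's percentile over the 3 fed lists had a median of 10.8. For sites held by all 6 libraries, which lie nearer the top of the scale, it was 5.58.

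By the rule, a starved peak counted for a member only where it fell in the same merged site. Its midpoint lay a median of 28.7 bp from the mean fed midpoint (90th percentile 91 bp), against 39.2 bp at the sites with all 3 starved peaks. Where a starved library lacked a member, its nearest peak elsewhere was a median of 18.5 kb away in starved 1, 18.6 kb in starved 2 and 14.4 kb in starved 3. A peak within 1 kb was found at 1.93%, 1.25% and 2.72% of the missing members, respectively. Peaks that overlapped the site do not enter these values, since they would have made the library a holder. The median width of a merged member site was 509 bp, between 346 bp for the sites with no starved peak and 827 bp for those with all 3.

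The best-ranked members were strong fed sites that 1 starved library lacked. The highest fed rank was 85.4, at a site (chr8:35461991-35462814) 2863 bp from Eri1, whose product trims histone mRNA and small RNAs. It scored 164, 127 and 224 in fed 1 to fed 3, 74.1 in starved 1 and 14.8 in starved 2, and had no peak in starved 3. The next site (chr14:8314288-8315200) lay inside Fam107a, which encodes an actin-associated protein, and had a fed rank of 84.0. It scored 125, 149 and 224 in the fed libraries, 53.6 in starved 1 and 42.4 in starved 3, with no peak in starved 2. This was also the member with the highest starved rank, at 64.2. Further members among the best 10 had fed ranks from 77.4 to 82.1 and lay nearest to Sfrp5, Dpy19l3, Cpz, Tll2, Gm6975, Krtap7-1 and Rpn2. Of these, the sites near Sfrp5, Dpy19l3, Cpz, Tll2 and Gm6975 lacked a peak in starved 2, and those near Krtap7-1 and Rpn2 lacked one in starved 1. The site near Sfrp5, a secreted antagonist of Wnt signalling, scored 164, 124 and 160 in the fed libraries, 42.7 in starved 1 and 30.4 in starved 3. Each of these members was held by 2 starved libraries, and none of them overlapped a promoter window.

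Ranked by their starved peaks instead, the best members after the one in Fam107a had starved ranks from 57.9 to 59.2. A starved rank is the mean percentile over the starved lists that held the site. The site inside Cadm3 (chr1:173339346-173339942), an adhesion molecule gene, scored 79.1, 77.4 and 93.2 in the fed libraries, 22.8 in starved 1 and 64.8 in starved 3. The site inside Mmadhc (chr2:50290465-50291319), a gene of cobalamin metabolism, scored 97.9, 83.4 and 82.9 in the fed libraries, 42.8 in starved 1 and 38.8 in starved 3. The site nearest Gm11725 (chr11:117915041-117915892) scored 100.3, 75.7 and 139 in the fed libraries, 59.4 in starved 1 and 25.9 in starved 3. These 3 sites had peaks in starved 1 and starved 3 and none in starved 2, and their starved ranks were 59.2, 58.8 and 57.9. The Cadm3 peak in starved 1 and the Gm11725 peak in starved 3 scored below the medians of those lists, 30.3 and 31.6. The site inside Mfhas1 (chr8:35658122-35658937) had a starved rank of 58.1 from a single library: it scored 82.2, 119 and 160 in the fed libraries and 39.7 in starved 1, with no peak in starved 2 or starved 3.

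Members overlapped promoters more often than either neighbouring class. A promoter window was overlapped by 1455 members, or 15.0% (interval 14.3 to 15.7), by 9.23% of the fed sites with no starved peak (8.74 to 9.73) and by 9.45% of those with all 3 (9.07 to 9.85). Members were also highest in the share with a midpoint within 1 kb of a gene start, at 19.7% against 14.6% with no starved peak and 11.1% with all 3, and within 1 kb of either gene end, at 26.4% against 20.8% and 19.5%. Inside gene bodies the members stood close to the class with no starved peak, at 67.6% against 66.9%, and above the class with all 3, at 58.7%. Members with 1 and with 2 starved libraries had promoter shares of 15.4% and 14.6%, with overlapping intervals. The intervals treat sites as independent, which they are not, and no test over libraries was possible for a class built from all 6.

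**Figure D4:**
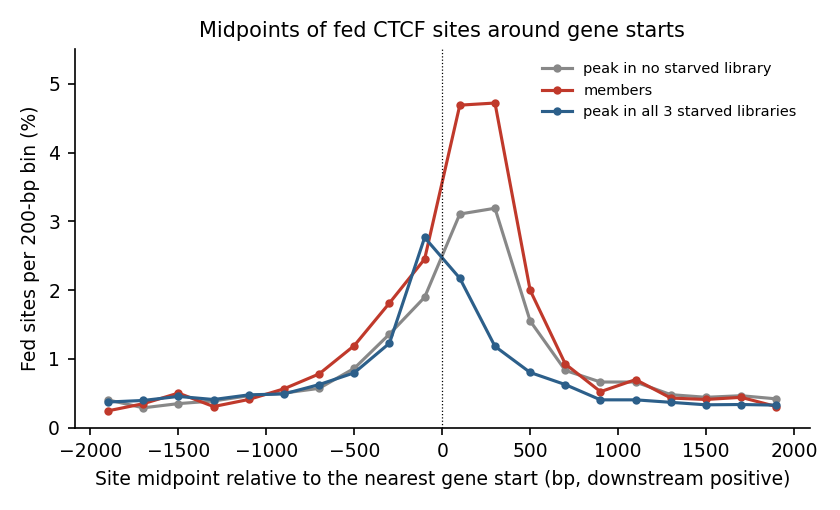
Share of fed sites per 200-bp bin (vertical axis, %) by the distance of the site's midpoint from the nearest gene start in bp (horizontal axis, positive downstream), for members and for the fed sites with no or with all 3 starved peaks. Members reach 4.72% between 200 and 400 bp after the start, while sites in all 3 starved libraries are highest just before it, at 2.77%.

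Around gene starts the members were placed differently from the sites that all starved libraries kept. Member midpoints were densest in the bins from 0 to 200 and from 200 to 400 bp after the start, with 4.69% and 4.72% of all members. Sites with no starved peak had their highest values in the same bins, with 3.11% and 3.19%. Sites in all 3 starved libraries were densest in the 200 bp before the start, with 2.77%, and held 1.18% from 200 to 400 bp after it. At the 1455 promoter members the merged site was wider than at the others, with a median of 680 against 488 bp, and its fed rank was lower, with a median of 45.0 against 52.9.

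The promoter share differed with fed rank and between the starved libraries. Among members it was 30.6% in the fed rank band from 20 to 30, 28.1% from 30 to 40, 16.7% from 40 to 50, 10.7% from 50 to 60 and 7.01% from 60 to 70. In the same bands the sites with no starved peak had 11.2%, 8.82%, 6.12%, 3.95% and 5.19%. Between 50 and 60, sites with all 3 starved peaks had 11.1% (interval 9.23 to 13.3) and members 10.7% (9.68 to 11.8). From 40 to 50 the sites with all 3 had 18.1% and members 16.7%, and from 60 to 70 they had 8.28% and 7.01%. From 70 to 80 members were slightly higher, at 7.43% against 6.94%. The intervals overlapped in each of these bands, so members did not clearly stand above the sites kept by all at like fed rank. By library, the share was 18.97% for members of starved 1 alone, 11.8% for starved 3 alone and 3.89% for starved 2 alone (10 of 257 sites, interval 1.88 to 7.04). It was 16.2% for starved 1 and 3, 10.2% for starved 1 and 2 and 4.99% for starved 2 and 3. These patterns differed in median fed rank too, at 43.3 for starved 1 alone, 49.1 for starved 3 alone and 52.0 for starved 2 alone. For the pairs, in the order above, the median fed ranks were 56.4, 55.7 and 59.7. The part of fed rank in the differences between patterns was not tested. Promoter windows were overlapped by 8.45% of all peaks of starved 1, 7.30% of starved 3 and 6.28% of starved 2. The libraries thus stood in the same order in their whole lists, with smaller differences.

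**Figure D5:**
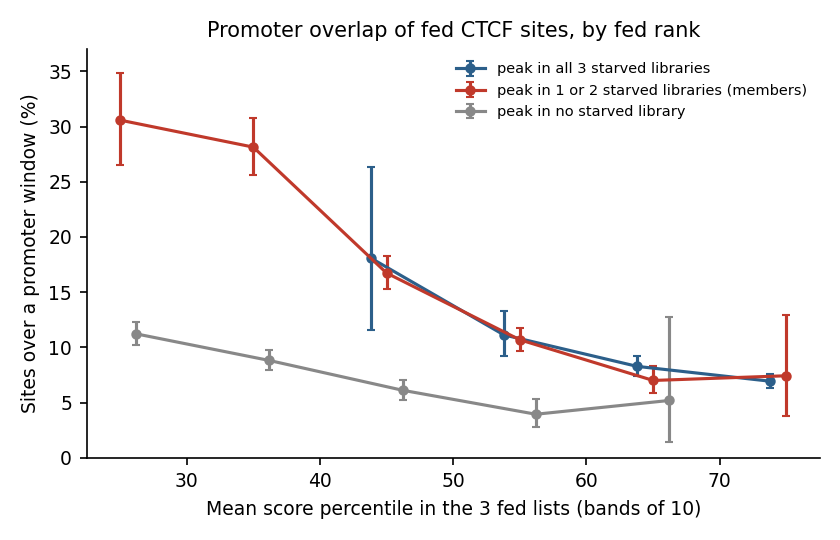
Share of fed sites over a promoter window (vertical axis, %, bars are exact 95% intervals for counting error) by band of fed rank (horizontal axis), for members and for the fed sites with no or with all 3 starved peaks. Members fall from 30.6% in the band from 20 to 30 to 7.01% in the band from 60 to 70. In each of these bands they lie above the sites with no starved peak (77 sites from 60 to 70, where the intervals overlap). They lie slightly below the sites with all 3 starved peaks from 40 to 70 and slightly above them from 70 to 80, with overlapping intervals.

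The higher promoter share of members over both classes did not hold with lists cut to equal length or at a common score limit. Whether either setting makes the lists comparable is not known. With each list limited to its best 23926 peaks, the length of the shortest, 2152 sites met the rule and 7.30% overlapped a promoter, against 6.11% of 262 sites with no starved peak and 9.41% of those with all 3. With a score limit of 30.44 on all lists, the share was 7.18% against 7.72% and 11.5%. Few of the 9706 members were in those sets: 1114 met the rule again at equal list length and 119 at the score limit. At equal list length, 4160 members (42.9%) had no peak left in any list, 1835 (18.9%) had a peak in at least 1 starved list and none in a fed list, and 227 had peaks in all 3 fed lists and in no starved list. This setting shortens the longer lists and raises their lowest score at once. The higher share did hold with peaks trimmed to 200 bp (9.69% against 6.68% and 6.31%), with peaks merged within 500 bp, with autosomes alone and with each library left out in turn.

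Over all fed ranks together, promoters under members held the CTCF core less often than promoters under sites that all starved libraries kept. The 2 classes differed in median fed rank, 51.9 against 81.1, and shares at like fed rank are given below. Of 5834 promoter windows under a fed site, 1829 (31.4%) lay under a member. The core with at most 1 mismatch was found in 67 of these 1829, or 3.66% (interval 2.85 to 4.63), in 2.85% of the windows under sites with no starved peak (2.06 to 3.83) and in 17.5% of those under sites with all 3 (16.1 to 19.1). Among all 32851 promoter windows it was found in 2.28%. Counting only cores inside the site, 52 of 1455 promoter members had one (3.57%), against 19.5% of promoter sites with all 3 starved peaks. With no mismatch allowed the shares were 0.383% and 3.82%, and with 2 allowed 22.9% and 43.8%. A window could count in more than 1 class where 2 sites overlapped it. Windows on both strands, as at genes that start back to back, lay under 12.99% of promoter members, 12.2% of promoter sites with no starved peak and 11.3% of those with all 3.

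The promoter members with a core differed in the starved library that kept them. At Ptpn7 the site (chr1:135132269-135132851) scored 64.7, 70.7 and 96.3 in the fed libraries, 7.91 in starved 1 and 12.7 in starved 3. At Ncoa1 the site (chr12:4477243-4478006) scored 43.5, 64.4 and 143 in the fed libraries, 20.5 in starved 1 and 17.3 in starved 3. At Gm31881 the site (chr3:152105322-152105758) scored 50.4, 49.5 and 107 in the fed libraries, 13.3 in starved 1 and 14.5 in starved 3. These 3 lacked a peak in starved 2, like the most frequent pattern of the set. At Dcaf12l1 the site (chrX:44790058-44790565) scored 50.5, 54.5 and 112 in the fed libraries, 5.99 in starved 2 and 10.7 in starved 3, with none in starved 1. At Scn8a, a sodium channel gene, the site (chr15:100870221-100870793) scored 55.2, 71.2 and 104 in the fed libraries and 9.77 in starved 3 alone. At Aldoa, which encodes a glycolytic aldolase, the site (chr7:126798815-126800198) scored 52.6, 40.2 and 88.2 in the fed libraries, 8.85 in starved 1 and 16.2 in starved 3. In all of these the starved scores lay below the lowest fed score. The others of the 10 best-ranked promoter members with a core were at Gm41910, Ufl1, Ubtf and Fam118a, with fed ranks from 58.8 to 74.0, and at Gm41910 and Ufl1 the matched core lay outside the site itself.

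Over all fed ranks, members stayed below the sites kept by all in this share under every alternative run. It was 5.5% against 19.1% at equal list length, 11.4% against 24.6% at the score limit and 5.11% against 25.0% with trimmed peaks. The gap differed with fed rank. No intervals were computed for the bands, so members did not clearly stand below the sites kept by all at like fed rank. Between 40 and 50 the core was found in 19 of 495 member promoters (3.84%) and in 0 of 29 promoters of sites with all 3 starved peaks, which allows a share of up to 10.3% (3 windows of 29). Between 50 and 60 the core was found in 27 of 476 member promoters (5.67%) and in 12 of 143 promoters of sites with all 3 starved peaks (8.39%). Between 60 and 70 it was found in 8 of 174 (4.60%) and in 24 of 377 (6.37%). Between 70 and 80 it was found in 1 of 17 and in 50 of 473 (10.6%). Against sites with no starved peak, the order over all fed ranks (members 3.66%, those sites 2.85%) did not hold in every band. From 20 to 30, 30 to 40 and 40 to 50 those sites had 1.82%, 3.96% and 4.72%, and members 0%, 2.53% and 3.84%. From 50 to 60 members were higher (27 of 476 against 1 of 46). From 60 to 70 they were lower (8 of 174 against 1 of 4). At equal list length members were lower too (5.5% against 10% of 20 windows), and under the other list alternatives higher. Beyond promoter windows no sequence was searched, so these shares say nothing about the 8251 members away from promoters.

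In base composition the promoters under members resembled those under the other fed sites more than the average promoter. Their median GC content was 65.0%, against 64.0% with no starved peak, 61.7% with all 3 and 52.7% over all windows. The GC box GGGCGG was present in 73.0% of member promoters, in 68.5% and 60.6% of the 2 other classes and in 35.7% of all windows. The ETS word CCGGAAG was present in 18.8%, against 17.1%, 15.6% and 8.86%. The NRF1 word GCGCATG was present in 7.65%, against 7.20%, 5.82% and 3.91%. The cAMP response element TGACGTCA was present in 2.79%, against 2.51%, 1.97% and 1.79%. The E-box CACGTG, bound by CLOCK and BMAL1 among others, was present in 10.6%, against 10.3%, 8.79% and 7.15%. The YY1 word AAGATGG was present in 6.83%, against 6.04%, 5.98% and 6.34%, and the TATA word TATAAA in 6.23%, against 5.30%, 6.82% and 13.6%. The words were searched in both directions and may overlap each other in GC-rich windows, and a match is a description of letters, not a bound factor.

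Genes of the liver's response to feeding were described by counting, for each list, genes with a member within 5 kb of either gene end among genes with any fed site there. Over all 12499 protein-coding or listed genes with such a fed site, 35.9% had a member, and of the 16358 fed sites in these windows 23.9% were members. Genes with more fed sites have more chances to hold a member, and no list was tested. In fatty acid and triglyceride synthesis 11 of 18 genes had a member, and 14 of 37 sites were members. In fatty acid oxidation and ketogenesis 7 of 16 genes had one, in sterol synthesis and uptake 6 of 15 and in bile acid metabolism 2 of 7. In gluconeogenesis, the making of glucose in fasting, 3 of 14 genes had one, and 4 of 24 sites were members (16.7%). In amino acid and urea metabolism the count was 9 of 14 genes, in insulin and nutrient signalling 14 of 28, and in autophagy 11 of 19.

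Among lipid genes, the best-ranked member lay near Srebf1, the master regulator of fatty acid synthesis (chr11:60194994-60195662, inside Rai1). It scored 131, 97.0 and 112 in fed 1 to fed 3, 46.8 in starved 1 and 10.6 in starved 3, with no peak in starved 2. The member near Thrsp, a lipogenic gene, scored 69.0, 57.7 and 114 in the fed libraries, 10.6 in starved 2 and 9.93 in starved 3, with none in starved 1. At both of these members, every starved score was below the lowest fed score. Ppara, the receptor that drives fat oxidation in fasting, had 2 members within 5 kb among 3 fed sites, and both lay nearest to Cdpf1. No fed site at Cpt1a, the carnitine transferase that admits fatty acids to mitochondria, was a member: all 3 there had a peak in all 3 starved libraries. The same held for the 2 sites at Pck1, the rate-limiting enzyme of gluconeogenesis. Of the gluconeogenesis list, Creb1, Pcx and Slc37a4 had members, with fed ranks of 34.6, 29.7 and 28.2 for their best ones. At Creb1, which encodes a cAMP-responsive activator, the member lay over the promoter and scored 15.3, 14.5 and 16.9 in the fed libraries, 9.15 in starved 1 and 6.71 in starved 3. At Slc37a4, the glucose 6-phosphate transporter, the member scored 13.4, 9.17 and 14.4 in the fed libraries, 29.2 in starved 1 and 5.78 in starved 3. There the score in starved 1 was above all 3 fed scores. At Pcx, the pyruvate carboxylase gene, the best-ranked member scored 15.8 in starved 1 alone, above fed 1 (9.04) and fed 2 (8.91) and below fed 3 (30.5). At Igfbp1, a fasting-induced secreted protein, 1 of 3 fed sites had no starved peak and 2 had all 3.

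Among genes of nutrient sensing and autophagy, the best-ranked members of 5 genes are described here, and the other genes of these lists are not. Each was kept by starved 3 alone or by starved 1 and starved 3, patterns that made up 19.8% and 41.1% of all members. At Prkaa2, which encodes a catalytic subunit of the energy sensor AMPK, a member over the promoter scored 59.8, 51.3 and 84.3 in the fed libraries, 15.1 in starved 1 and 13.7 in starved 3. At Prkag2, which encodes a regulatory subunit of AMPK, it scored 49.4, 33.0 and 63.7 in the fed libraries, 6.11 in starved 1 and 7.82 in starved 3. At Rheb, the small GTPase that activates mTORC1, it scored 45.4, 46.6 and 84.9 in the fed libraries and 9.77 in starved 3 alone. The members described at Prkaa2 and Prkag2 thus had a peak in starved 1 and starved 3, and the one at Rheb in starved 3 only. At Atg5, needed to form autophagosomes, the member over the promoter scored 70.8, 29.2 and 129 in the fed libraries, 32.1 in starved 1 and 18.6 in starved 3. At Ulk1, the kinase that starts autophagy, it scored 59.3, 33.0 and 82.6 in the fed libraries, 18.3 in starved 1 and 20.8 in starved 3. At Atg5 the starved 1 score was above the fed 2 score, while at Ulk1 both starved scores were below all fed scores. Of the sterol and bile acid genes, Srebf2, the regulator of sterol synthesis, had a member that scored 27.7, 42.3 and 58.4 in the fed libraries, 11.8 in starved 1 and 7.52 in starved 3. Cyp7b1, an enzyme of the alternative bile acid pathway, had one that scored 57.6, 25.4 and 119 in the fed libraries, 3.41 in starved 1 and 8.36 in starved 2.

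Clock genes had members at 11 of 17 genes (64.7%, against 35.9% of all genes). Of their 34 sites, 12 were members (35.3%, against 23.9% of all sites in such windows), and the list was not tested. The groups differed in collection time as well as feeding, at ZT16 and ZT13. The member near Nr1d1, which encodes the clock repressor REV-ERB alpha, lay inside Thra (chr11:98762662-98763062). It scored 51.9, 41.6 and 87.4 in the fed libraries, 11.9 in starved 1 and 14.8 in starved 3, with no peak in starved 2. Near Dbp, a clock output factor, the best-ranked member scored 40.1, 19.9 and 56.3 in the fed libraries and 6.58 in starved 1 alone. Npas2, a paralog of Clock, had a member that scored 34.2, 22.0 and 66.8 in the fed libraries, 6.17 in starved 1 and 9.07 in starved 3. No member lay at Per1 or Per2, the clock repressors: Per1 had 1 fed site with no starved peak and 1 with all 3, and Per2 had 2 and 1.

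In the list of CTCF and cohesin genes 5 of 17 had a member (29.4%, against 35.9% of all genes), and 6 of 29 sites were members (20.7%, against 23.9% of all sites in such windows). Both fed sites at Ctcf had peaks in all 3 starved libraries. The members at Wapl, which releases cohesin, Yy1, Ncaph2 and Smc3, a cohesin subunit, had fed ranks of 43.5, 42.0, 37.8 and 30.9. Imprinted genes, where CTCF is known as an insulator, had members at 6 of 19 genes. There, the best-ranked member near Mest scored 70.8, 51.6 and 82.2 in the fed libraries, 24.0 in starved 1 and 11.7 in starved 3.

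In the remaining lists, hepatocyte identity genes had members at 9 of 18 genes, nuclear receptors at 9 of 26 and acute phase genes at 6 of 15. Genes of endoplasmic reticulum and amino acid stress had them at 8 of 14, where 35.9% of all genes had one. In the same order, 11 of 34, 13 of 50, 11 of 29 and 12 of 26 sites were members. These shares were 32.4%, 26.0%, 37.9% and 46.2%, against 23.9% of all sites in such windows. Foxa2, a pioneer factor of the liver, had a member over its promoter (chr2:148045978-148046681), which scored 14.5, 20.4 and 19.5 in the fed libraries and 8.04 in starved 1 alone. Its other fed site was kept by all 3 starved libraries, and Hnf4a had no fed site within 5 kb. Near Afp, a fetal hepatocyte gene, the best-ranked member scored 74.5, 84.7 and 116 in the fed libraries, 40.8 in starved 1 and 27.0 in starved 3. Near Foxa1, another pioneer factor, it scored 59.4, 58.6 and 99.8 in the fed libraries, 38.0 in starved 1 and 16.3 in starved 3. At Cyp2e1, a cytochrome P450 of hepatocytes, it scored 54.4, 52.9 and 85.2 in the fed libraries and 5.82 in starved 3 alone. The members described near Afp and Foxa1 thus lacked a peak in starved 2 only, and the one at Cyp2e1 in both starved 1 and starved 2. For cells other than hepatocytes, Kupffer cell and macrophage markers had a member at 1 of 2 genes and endothelial markers at 2 of 5. Stellate cell markers had one at 3 of 6, cholangiocyte markers at 3 of 5 and lymphocyte markers at 1 of 2. These marker lists hold too few genes with a fed site to be set against the 35.9% of all genes. Peaks near a marker gene do not measure its expression, and the cell makeup of the livers was not measured.

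Members were spread over the genome. On the autosomes and X, the share of fed sites that were members ran from 20.2% on chromosome 11 to 24.8% on X, and 8 of 19 fed sites on Y were members. The nearest other member was a median of 48.4 kb away, and 16.4% of members had another within 10 kb. Of the sites with no starved peak and with all 3, 16.5% and 15.4% had a member within 10 kb. A site kept by all 6 libraries lay within 10 kb of 31.2% of members, against 30.3% of the sites with no starved peak and 34.7% of those with all 3. Gse1 held 8 members among 32 fed sites (25.0%) and Agap1 held 7 among 20 (35.0%), against 21.6% of all fed sites. The overlapping gene models Gm37013, Gm38666 and Gm38667 each held 10 members, among 27, 26 and 26 fed sites. Since these models share most of their span, these are largely the same sites.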

How the data were processed

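CTCF ChIP-seq libraries of whole liver (3 fed, 3 starved) had been made, per the labels' protocols, with a Diagenode antibody and MicroPLEX v2. Each deposited list gave a position and a score per peak, called per library. The authors' score looks like a −log10 p or q, but the sources used here do not define it. The submitters' processing notes name the build mm10 and the tools MACS2, HOMER, BWA 0.7.5a, bedtools 2.17, SAMtools and FastQC, with no role or order. Read depth, duplicates, blacklists and any use of inputs as control: not given in the sources used here. A longer list can reach weaker sites, which can change which sites meet the rule.

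Groups and replicate numbers came from the sample titles. Starts were read as counted from 0 and are printed from 1. Where a library had several peaks in a site, the best score was used. Gene positions (49993 genes) and promoter windows came from RefSeq tables of GRCm38.p6; the gene table gives no exons, so exon or intron is not stated, and no genome sequence was used. Of 382 genes in 20 lists, 380 matched by symbol. Shares have exact (Clopper-Pearson) 95% intervals. No test was run, because the rule uses all 6 lists and sites are not replicates.

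Named were the 10 members with the highest fed rank, the 5 with the highest starved rank, at most 4 genes per list by fed rank, the 10 best-ranked members at promoters with the core (chromosome 18 left out), the 5 genes holding most members, and Fasn, Nr1d1, Ctcf, Pck1, Cpt1a, Ppara, Per1, Per2, Clock, Hnf4a, Foxa2 and Igfbp1. Not all of them are printed, and some genes that the rule names are left out. The 5 promoters printed without the core were chosen after their values were seen. Members, lists and rules were chosen with earlier results of these data known. Alternatives were a score limit, equal list length, trimming peaks to 200 bp, merging them within 500 bp, each library left out, autosomes alone and other mismatch limits for the core. Applying the list alternatives to the core share was chosen after seeing the data. The code was checked on simulated lists of 44909 sites, with sites set far apart and the peaks of a site always overlapping. It returned 200 of 200 planted sites with 1 and 200 of 200 with 2 starved peaks, as that layout fixes in advance. This checks the code alone and says nothing about missed or crowded peaks in the real lists. Computations used Python 3.11.15 (scipy 1.17.1, numpy 2.4.6, pandas 2.3.3), and figures matplotlib 3.10.9.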

Additional observations from a re-analysis of the deposited data

How the results depend on the processing

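Of 87 recomputed values, 56 stayed within their interval, within 1 SD of the fed medians or, for the number of members, within 1.5 times, and 31 did not. With lists of equal length the rule gave 2152 members, or 9.914% of fed sites, with a median fed rank of 17.57; 71.51% of them had 2 starved peaks, 61.62% lay inside a gene, 17.38% within 1 kb of a gene end and 7.296% over a promoter, and 5.5% of those promoters had the core. With the score limit, members were 27.57% of fed sites; 60.03% had 2 starved peaks, 59.44% lay inside a gene, 15.94% within 1 kb of a gene end and 7.179% over a promoter, and 11.39% of those promoters had the core. Both keep fewer peaks by construction. The promoter share was 9.688% with peaks trimmed to 200 bp and 16.14% with peaks merged within 500 bp, since narrower or wider peaks reach fewer or more windows. Trimming gave 5.108% for the core, and the cause was not tested. The core was found in 0.3827% with 0 mismatches and in 22.85% with at most 2.

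Leaving out each library in turn gave 5455 to 10064 members, or 12.15% to 21.61% of fed sites, with the lowest number without starved 2 and 6449 without starved 1. It gave 47.85% to 49.17% with 2 starved peaks (fed libraries left out only, since without a starved library no member can have 2), 25.55% to 27.66% within 1 kb of a gene end and 13.19% to 16% over a promoter. No paired analysis was possible because the results come from no test. Read depth is unknown, so the lists' lengths could not be set against it, and the cause of the differences between libraries was not tested.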
